A study of Homo sapiens with 16 samples.

Results

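The 10 tubulin genes described here are 4 α-tubulin genes (TUBA1A, TUBA1B, TUBA1C and TUBA4A) and 6 β-tubulin genes (TUBB, TUBB2A, TUBB2B, TUBB3, TUBB4B and TUBB6). They were taken by symbol, through the Ensembl identifiers of the count files, from 58302 counted genes. RNA was sequenced from HEK293 cells, a human embryonic kidney line, in 16 libraries of 4 groups with 4 libraries each: the cytoplasmic lysate (Input) and the pooled polysomal fractions of a sucrose gradient (Polysome), each from Ctrl cells and from cells treated with 100 nM of an siRNA against Gemin5 (siRNAG5). Gemin5 is an RNA-binding protein of the SMN complex, and the study asked how its loss altered the mRNAs on polysomes. All 4 groups passed through cycloheximide, which holds ribosomes on mRNA, before lysis. The sample labels call the Ctrl cells untreated, whereas the study lists a control siRNA and describes Ctrl as the siRNA control in its check of the silencing. The 4 samples of a group are described as independent biological samples, and p-values measure the spread between them. In bulk RNA of this kind, fewer cells that make an mRNA and less of that mRNA per cell cannot be told apart.

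α- and β-tubulin are the subunits of the heterodimers that polymerize into microtubules, and each is encoded by several genes of nearly the same protein sequence, the isotypes. Tubulin mRNAs are known for autoregulation: when free dimers accumulate, the factor TTC5 recognizes the first residues of the nascent tubulin chain (MREC in α-tubulin, MREI in β-tubulin) on the ribosome and, through SCAPER and the CCR4-NOT deadenylase, the mRNA being translated is degraded. This control therefore acts on mRNAs on polysomes, the fraction sequenced beside the lysate here.

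The first 30 coding bases of each gene are shown because the first 12 of them, in capitals, encode the residues that TTC5 reads. They were read from the canonical transcripts of GENCODE v44 on GRCh38.
TUBA1A: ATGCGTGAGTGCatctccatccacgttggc
TUBA1B: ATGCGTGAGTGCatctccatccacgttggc
TUBA1C: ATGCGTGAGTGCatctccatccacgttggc
TUBA4A: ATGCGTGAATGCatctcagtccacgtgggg
TUBB: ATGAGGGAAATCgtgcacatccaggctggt
TUBB4B: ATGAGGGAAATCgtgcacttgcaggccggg
TUBB6: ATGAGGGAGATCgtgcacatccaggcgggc
TUBB3: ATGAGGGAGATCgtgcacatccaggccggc
TUBB2A: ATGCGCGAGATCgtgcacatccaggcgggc
TUBB2B: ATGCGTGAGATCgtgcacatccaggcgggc
The 3 TUBA1 genes shared all 30 bases. TUBB and TUBB4B shared the capitals, as did TUBB3 and TUBB6. In the α-tubulin genes the start codon is the only coding part of its exon, and an intron separates it from the rest of the stretch: in TUBA1B, on the minus strand of chromosome 12, the ATG lies at 49131298 to 49131300 and the next 27 bases at 49129696 to 49129722. In the β-tubulin genes the stretch is unbroken, as in TUBB4B on the plus strand of chromosome 9 at 137241361 to 137241390 and in TUBB on the plus strand of chromosome 6 at 30720507 to 30720536. TUBB2A (minus strand, 3157434 to 3157463) and TUBB2B (minus strand, 3227514 to 3227543) lie on chromosome 6 as well.

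The transcript starts were read too, because mRNAs of the translation machinery begin with a C followed by pyrimidines. A C followed by at least 4 pyrimidines stood at 1 of the 15 RefSeq starts of the 10 genes (GRCh38.p14), a start of TUBB at base 30720352 of chromosome 6, written here from 10 bases before the start with the run of pyrimidines in capitals.
TUBB start: tcctttctccCTCTCagaaccttcc
Of all 35116 RefSeq starts 4.07% held such a run, and 56.5% of the 85 starts of ribosomal protein genes. A match is only a description of these letters.

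Between 11145324 and 24511299 reads fell on genes in each library. GEMIN5, the silenced gene, was at 17.9 ± 2.32 CPM (read counts scaled to a common library total by TMM, mean ± SD, n = 4) in the Input libraries of Ctrl cells and 6.72 ± 0.529 in those of silenced cells (log2 FC -1.40, adjusted p = 3.105e-10). In Polysome it was at 7.44 ± 1.56 and 2.65 ± 0.495 CPM (log2 FC -1.44, adjusted p = 0.00477). Of 7 markers of the kidney line, all with reads in every group, VIM (387 to 1087 CPM in group means) made up most of the sum of 488 to 1671 CPM per library, followed by keratin and neurofilament genes, while the kidney genes PAX2 (0.752 to 1.79 CPM) and LHX1 (0.424 to 1.78 CPM) were near 0. Liver markers (ALB, APOA1, APOB, SERPINA1, FGA, FGB, TF and TTR) split the Ctrl libraries: their sum was 120 and 105 CPM in Input Ctrl 3 and 4 and 64.5 to 134 CPM in the 4 Polysome Ctrl libraries, all 8 genes having reads in each of these 6 libraries, against 0.165 to 1.69 CPM in Input Ctrl 1 and 2 and all 8 siRNAG5 libraries. In Polysome this signal and the treatment cannot be told apart. Blood markers summed to at most 2.73 CPM and brain markers to at most 3.69 CPM. The Polysome libraries Ctrl 1, siRNAG5 1 and siRNAG5 4 stood apart from the other 5 along the third principal component, across the treatment groups. Reads placed at several genomic positions made up 4.88 to 6.04% of an Input library and 21.2 to 42.4% of a Polysome library.

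How well a tubulin gene can be counted depends on how much of it is unique. Of the 100-base windows of the canonical transcript, 54.6% of TUBB2A, 48.7% of TUBB2B, 36.9% of TUBA1B, 21.0% of TUBA1A and 12.1% of TUBA1C occurred again elsewhere in the genome, mostly in another of the 10 genes. In TUBB, TUBB3 and TUBB4B the share was 3.0 to 5.42%, and in TUBA4A and TUBB6 it was 0. A single read in such a window carries no unique position, so counts of these genes are uncertain. The extent was not measured, because reads were paired and a mate in unique sequence could place the pair. Windows across exon junctions were searched in the genome only, so those shared between spliced transcripts could be missed. The 50 annotated tubulin pseudogenes together held 372 to 780 reads per library, 0.446 to 1.54% of the reads of the 10 genes. An antisense gene, TUBA1B-AS1, covers 72.7% of the TUBA1B transcript and had 37 to 150 reads per library. TUBB3, the neuronal β-tubulin, could not be measured: 92.9% of its transcript is shared on the same strand with the gene ENSG00000198211, which held 0 reads in all 16 libraries, and reads on both genes are set aside as ambiguous. The 0 to 7 reads left to TUBB3 per library did not pass the filter on low counts in any comparison. The other 9 members passed it in all of them.

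Per kilobase of transcript the order of levels in Input Ctrl ran from TUBA1B through TUBB, TUBB4B, TUBA1C, TUBA1A, TUBB6, TUBB2B and TUBB2A to TUBA4A. TUBA1B, the main α-tubulin of dividing cells, was at 2047 ± 85.6 CPM per kb (mean ± SD, n = 4 here and below), TUBB at 671 ± 35.9 and TUBB4B at 523 ± 53.0. TUBA1C followed with 291 ± 20.4 CPM per kb and TUBA1A with 200.3 ± 6.72. The minor isotypes were TUBB6 with 64.7 ± 2.59 CPM per kb, TUBB2B with 45.4 ± 4.13, TUBB2A with 32.9 ± 1.31 and TUBA4A with 4.65 ± 0.277. No neighbours in this order overlapped. With the union of all annotated exons as the length the order was the same, but TUBB overlapped TUBB4B (414 and 401 CPM per kb) and TUBB2B overlapped TUBB2A (21.0 and 18.3). In Input siRNAG5 the order differed in 1 place, TUBB2B standing at 63.1 ± 6.38 CPM per kb and TUBB6 at 55.8 ± 2.06, with ranges that overlapped. In Polysome Ctrl the order was that of Input Ctrl with wider spreads, and 5 of the 8 pairs of neighbours overlapped, among them TUBB at 367 ± 120 and TUBB4B at 268 ± 91.9 CPM per kb. Polysome siRNAG5 kept that order too, with overlap between TUBA1C and TUBA1A only.

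**Figure D1:**
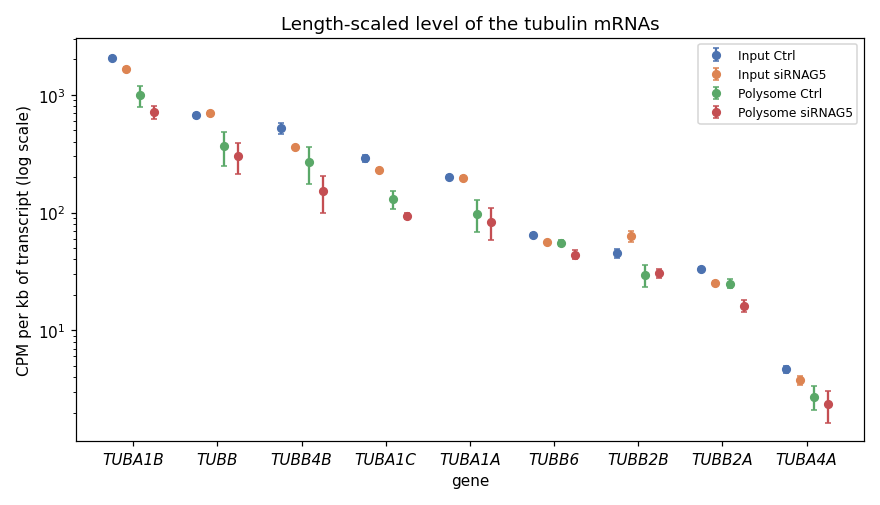
CPM per kb of canonical transcript on a log axis for the 9 tubulin genes that passed the filter, in the order of Input Ctrl; points are means and bars are SD over 4 libraries. The levels run from 2047 CPM per kb for TUBA1B to 4.65 for TUBA4A in Input Ctrl, and the Polysome bars of TUBB and TUBB4B are wide.

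The 10 genes together took 0.550% ± 0.0274 of the reads on genes in Input Ctrl and 0.518% ± 0.0140 in Input siRNAG5. In Polysome the shares were 0.410% ± 0.109 and 0.403% ± 0.118. After TMM scaling, the summed level was 7261 ± 349 CPM in the lysate of Ctrl cells, 6293 ± 182 in that of silenced cells, 3697 ± 884 in Polysome Ctrl and 2734 ± 522 in Polysome siRNAG5.

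In the lysate, 5 tubulin mRNAs were lower after Gemin5 silencing and TUBB2B was higher, while TUBA1A, TUBA4A and TUBB did not pass the test. A gene was called when edgeR's quasi-likelihood test, fitted across all genes, gave it a p below 0.05 after Benjamini-Hochberg adjustment and its log2 FC (siRNAG5 over Ctrl) exceeded 0.5 in size. By that rule 1 of the 9 tested members was called lower, against 6.02% of all 14134 genes tested, and 0 were called higher, against 10.5%. Leaving the fold aside, 5 members were lower with an adjusted p under 0.05 (19.1% of all genes) and 1 was higher (17.9%). Without overlap between the groups, 6 members lay below (19.1% of genes) and 1 above (15.1%). The median log2 FC of the 9 was -0.28, and that of all genes 0.04. These calls depended on the fit. With all 16 libraries in 1 fit, whose spread includes that of Polysome, the folds were about as large, but TUBB2A and TUBB2B alone had an adjusted p under 0.05 (0.01385 and 0.02029), against 0.1904 for TUBA1B, 0.06676 for TUBA1C, 0.1325 for TUBB4B and 0.1209 for TUBB6.

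Among the α-tubulins, TUBA1B measured 3206, 3529.6, 3301 and 3282 CPM in Input Ctrl 1 to 4 and 2666, 2839, 2637 and 2729 in Input siRNAG5 1 to 4. Every silenced library lay below every Ctrl library, and the level was 82.4% of Ctrl (log2 FC -0.28, SE 0.06, adjusted p = 0.00028). TUBA1C, another abundant isotype, measured 749.8, 890.2, 816 and 828 CPM in Ctrl and 626, 676, 635 and 671 in siRNAG5. It behaved likewise, at 80.1% of Ctrl (log2 FC -0.32, SE 0.06, adjusted p = 0.0001709). TUBA1A, the isotype prominent in neurons, measured 319, 334, 341 and 345 CPM in Ctrl and 317, 339, 336 and 335 in siRNAG5. Its groups overlapped, with a 95% confidence interval of the log2 FC from -0.12 to 0.12 and adjusted p = 0.9964. TUBA4A, which has 96 to 157 reads per Input library, lay at 9.07 to 10.3 CPM in Ctrl and 6.91 to 8.53 CPM in siRNAG5 without overlap, and did not pass the test (log2 FC -0.29, SE 0.12, adjusted p = 0.05836).

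Among the β-tubulins, TUBB4B measured 722, 921, 794 and 832 CPM in Input Ctrl 1 to 4 and 571, 573, 564 and 548 in Input siRNAG5 1 to 4. All silenced libraries were lower, and TUBB4B was the called member, at 69.6% of Ctrl (log2 FC -0.52, SE 0.07, adjusted p = 3.639e-07). TUBB, which shares its first 12 coding bases and is the most abundant β-tubulin here, measured 1556, 1727, 1703 and 1761 CPM in Ctrl and 1794, 1839, 1688 and 1688 in siRNAG5. The groups overlapped (log2 FC 0.07, 95% confidence interval -0.05 to 0.19, adjusted p = 0.3965), but scaled by library size alone TUBB passed the test as higher (log2 FC 0.17, adjusted p = 0.006706) and TUBB6 did not pass it (-0.09, adjusted p = 0.2497). The call of TUBB4B was lost on the fold without Input Ctrl 2, its highest library (log2 FC -0.46), and by library size (-0.42). It was lost on the p with all 16 libraries in 1 fit (-0.54, adjusted p = 0.1325). Over the fits that left out 1 library the adjusted p was at most 4.066e-06.

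TUBB2A and TUBB2B, neighbouring genes of nearly identical protein, moved apart. TUBB2B measured 92.8, 75.7, 88.0 and 92.2 CPM in Input Ctrl and 137, 125, 109 and 114 in Input siRNAG5, all 4 above Ctrl, at 140.5% of Ctrl (log2 FC 0.49, SE 0.08, adjusted p = 8.055e-06). TUBB2A measured 51.4, 56.1, 51.8 and 53.6 CPM in Ctrl and 40.4, 42.8, 39.7 and 39.9 in siRNAG5, all 4 below, at 77.1% of Ctrl (log2 FC -0.38, SE 0.07, adjusted p = 0.0001862). Neither passed the fold threshold. The log2 FC of TUBB2B passed it without Ctrl 1, Ctrl 4, siRNAG5 3 or siRNAG5 4, the largest value being 0.54. TUBB6, a divergent β-tubulin, lay at 116 to 127 CPM in Ctrl and 99.3 to 108 in siRNAG5, at 87.0% of Ctrl (log2 FC -0.20, SE 0.07, adjusted p = 0.01594).

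Because Input Ctrl 3 and 4 held liver markers, the comparison was repeated without Ctrl 3 and Ctrl 4. TUBB4B was then at a log2 FC of -0.54 and TUBB2B at 0.54, both called, TUBA1B at -0.30, TUBA1C at -0.32 and TUBB2A at -0.40, all 3 with an adjusted p under 0.05, and TUBB6 at -0.21 (adjusted p = 0.0836). The shares of all genes in this repeat are not given here, so these calls are without a background. The member values in the Ctrl libraries with the markers lay within the range of those without for TUBB4B, TUBA1B, TUBA1C, TUBB2A, TUBB2B and TUBB6. They did not for TUBA1A, TUBA4A and TUBB. TUBA1A lay above (341 and 345 CPM against 319 and 334), and TUBA4A below (9.07 and 9.19 CPM against 9.55 and 10.3). For TUBB, Ctrl 4 lay above (1761 CPM against 1556 and 1727).

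**Figure D2:**
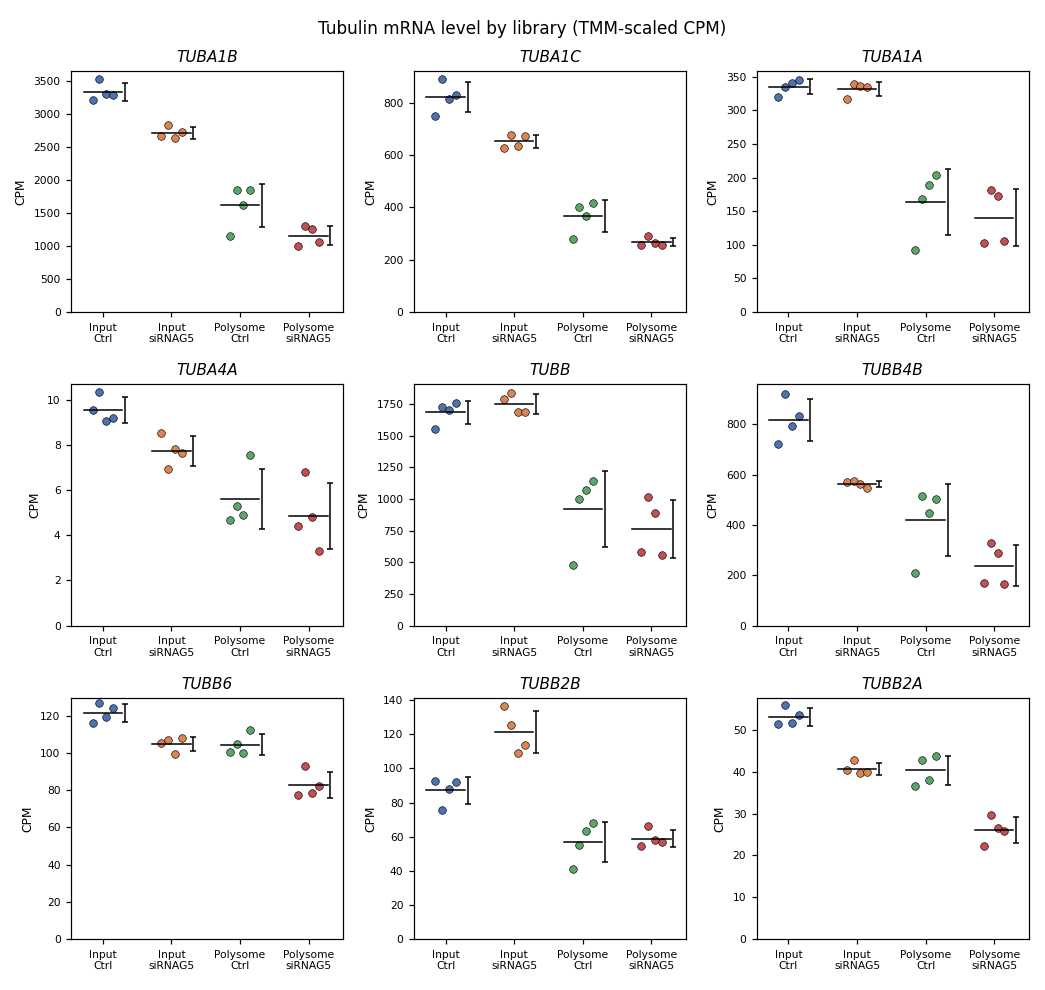
TMM-scaled CPM (linear axes from 0) of the 9 tubulin genes in each of the 16 libraries; horizontal lines are group means and the bars beside them SD over 4 libraries. In Input the siRNAG5 points of TUBB4B (548 to 573) lie below those of Ctrl (722 to 921), and those of TUBB2B (109 to 137) above (75.7 to 92.8).

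On polysomes the same contrast had a wider spread, and 1 of the 9 members was called lower and 0 higher (background 4.0% and 3.95% of 14420 genes). The called member was TUBB2A, the only one with an adjusted p under 0.05 (background 4.09% lower and 4.02% higher). Without overlap 2 members lay below, TUBB2A and TUBB6, and 0 above (10.0% and 8.29% of genes). The median log2 FC of the members was -0.29, that of all genes 0.03.

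TUBB2A measured 36.6, 42.9, 38.2 and 43.7 CPM in Polysome Ctrl 1 to 4 and 22.2, 29.6, 26.7 and 26.0 in Polysome siRNAG5 1 to 4. All silenced libraries were lower, at 66.7% of Ctrl (log2 FC -0.58, SE 0.13, adjusted p = 0.02593). The call was lost, with the same direction, when Ctrl 2, Ctrl 4, siRNAG5 1 or siRNAG5 3 was left out (adjusted p up to 0.09833, log2 FC -0.64 to -0.51). TUBB6 measured 101, 105, 100.1 and 112 CPM in Ctrl and 77.3, 92.8, 78.4 and 82.4 in siRNAG5, with no overlap and no call (log2 FC -0.29, SE 0.12, adjusted p = 0.1486).

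The abundant members had a wide spread among the libraries of a group. TUBB4B measured 207, 513, 447 and 505 CPM in Polysome Ctrl 1 to 4 and 171, 329, 287 and 167 in Polysome siRNAG5 1 to 4 (log2 FC -0.76, SE 0.30, adjusted p = 0.1291), and was called when Ctrl 1 was left out (adjusted p = 0.04382). TUBB measured 476, 1001, 1073 and 1140.2 CPM in Ctrl and 578, 1020.0, 886 and 557 in siRNAG5 (log2 FC -0.23, SE 0.29, adjusted p = 0.6443). In both genes Ctrl 1, siRNAG5 1 and siRNAG5 4 were the lowest libraries, and these are the 3 that stood apart on the third principal component. TUBA1B measured 1158, 1849, 1624 and 1847 CPM in Ctrl and 1003, 1303, 1254 and 1063 in siRNAG5 (log2 FC -0.44, SE 0.20, adjusted p = 0.1744), TUBA1C 281, 402, 366 and 416 CPM against 256, 289, 263 and 257 (log2 FC -0.41, SE 0.16, adjusted p = 0.1125). In each of these genes Ctrl 1 was the lowest Ctrl library and overlapped the silenced ones. TUBA1A (93.0, 168, 189 and 203 CPM against 102, 181, 173 and 106), TUBA4A (4.66, 5.29, 4.91 and 7.55 CPM against 4.41, 6.81, 4.78 and 3.32) and TUBB2B (41.0, 55.0, 63.1 and 67.9 CPM against 54.7, 66.1, 58.1 and 56.6) overlapped widely, with log2 FC of -0.17, -0.16 and 0.10. Scaled by library size alone, without TMM, the log2 FC of TUBA1A, TUBA4A, TUBB and TUBB6 in Polysome turned positive, and 0 members were called.

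**Figure D3:**
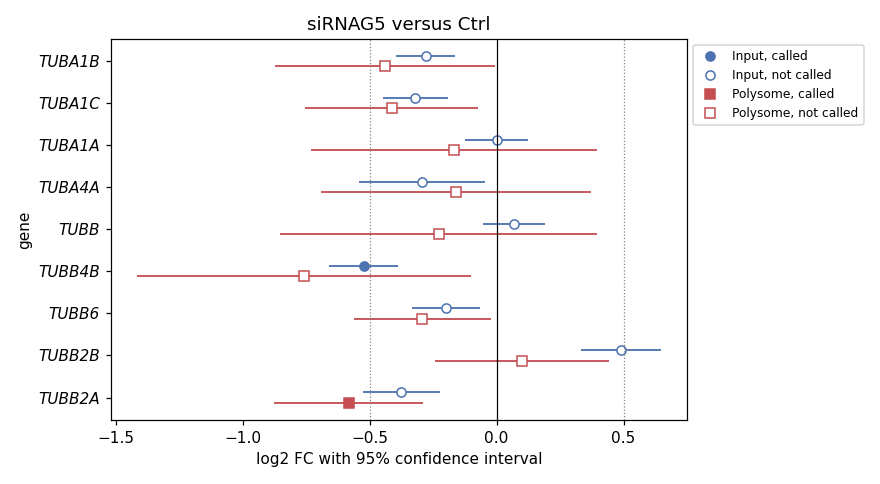
log2 FC of siRNAG5 over Ctrl with 95% confidence intervals for the 9 tubulin genes, Input as circles and Polysome as squares, filled where called; dotted lines mark the threshold of 0.5 in either direction. TUBB4B in Input (-0.52) and TUBB2A in Polysome (-0.58) are filled, and the Polysome intervals are the wider ones. Scaled by library size, TUBA1A in Input and TUBA1A, TUBA4A, TUBB and TUBB6 in Polysome lie above 0.

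The 3 Polysome libraries that stood apart held less of 5 members than all of the other 5 Polysome libraries, without overlap: TUBB4B, TUBB, TUBA1A, TUBA1B and TUBA4A (13.3% of 14958 genes lay below in this way). The mean of the 3 was 0.436 of the mean of the 5 for TUBB4B, 0.525 for TUBB, 0.548 for TUBA1A and 0.682 for TUBA1B. For TUBB6 the ratio was 0.888, for TUBB2B 0.818 and for TUBB2A 0.781, and these 3 and TUBA1C (0.762) overlapped. What sets these libraries apart was not tested. Within the 3, the log2 ratio of the siRNAG5 mean to the Ctrl library was -0.60 for TUBB2A, -0.30 for TUBB4B, -0.33 for TUBB6, -0.16 for TUBA1B, 0.25 for TUBB, 0.16 for TUBA1A and 0.44 for TUBB2B. Within the other 5 it was -0.56 for TUBB2A, -0.66 for TUBB4B, -0.30 for TUBB6, -0.47 for TUBA1B, -0.17 for TUBB, -0.08 for TUBA1A and 0.00 for TUBB2B. For TUBA1C the values were -0.13 within the 3 and -0.52 within the 5, and for TUBA4A -0.27 and -0.03. TUBB2A, TUBB4B, TUBB6, TUBA1B, TUBA1C and TUBA4A were thus negative within both sets. TUBB and TUBA1A differed in sign between the sets, and TUBB2B was positive within the 3 and at 0.00 within the 5. The set of 3 holds a single Ctrl library, so its direction rests on 1 sample. With 1 surrogate variable in the fit TUBB4B was called as well (log2 FC -0.93, adjusted p = 1.96e-05), beside TUBB2A (-0.61, adjusted p = 4.896e-05), and TUBA1B, TUBA1C, TUBA1A, TUBB and TUBB6 had adjusted p of 0.003543 to 0.04235 with folds within 0.5. Without the 3 libraries TUBB4B (-0.61, adjusted p = 0.02937) and TUBB2A (-0.51, adjusted p = 0.01912) were called. Calls rose over all genes too, from 1146 to 2966 with the surrogate variable and to 3115 without the 3 libraries. The added call of TUBB4B is therefore not particular to tubulin.

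**Figure D4:**
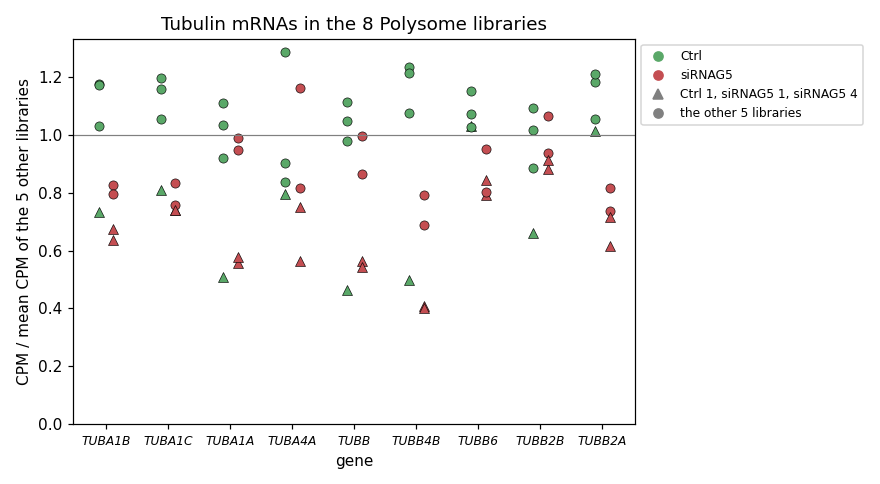
CPM of each Polysome library divided by the mean of the 5 libraries that lay together, for the 9 tubulin genes; triangles are Ctrl 1, siRNAG5 1 and siRNAG5 4, circles the other 5, green Ctrl and red siRNAG5. The triangles lie near 0.5 for TUBB and TUBA1A and nearer to 1 for TUBB6.

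Because the scaling of a library does not enter a ratio between genes within it, ratios between members are given as well, with no test, for pairs singled out after their values were seen. Of the 36 pairs of members, 25 had ratios without overlap between Ctrl and siRNAG5 in Input and 9 in Polysome. In 8 pairs this held in both fractions in the same direction. TUBB to TUBB4B, the β-tubulins with the same first 12 coding bases, stood at 2.16, 1.87, 2.14 and 2.12 in Input Ctrl and 3.14, 3.21, 2.99 and 3.08 in Input siRNAG5. In Polysome it stood at 2.30, 1.95, 2.40 and 2.26 in Ctrl and 3.39, 3.10, 3.09 and 3.35 in siRNAG5. Among the libraries that stood apart, siRNAG5 1 and 4 had the highest ratios of their group, and Ctrl 1 lay within its group. Among all genes, 19.8% had a lower ratio to TUBB in all silenced Input libraries than in all Ctrl libraries, and 1.0% in Polysome. In the 3 libraries that stood apart TUBB was at 0.525 of the mean of the other 5, and TUBB4B at 0.436. A gene without such a drop had a ratio to TUBB that varied within the groups, so the 1.0% is not the share among genes with a like drop. TUBB2B to TUBB2A stood at 1.80, 1.35, 1.70 and 1.72 in Input Ctrl and 3.38, 2.93, 2.75 and 2.86 in Input siRNAG5, and at 1.12, 1.28, 1.65 and 1.55 in Polysome Ctrl and 2.46, 2.23, 2.18 and 2.18 in Polysome siRNAG5. Against TUBB2A, which itself fell, 46.3% of all genes had a higher ratio in this way in Input and 41.7% in Polysome. The ratio of summed α- to β-tubulin, per kb, stood at 1.90 ± 0.0663 in the lysate of Ctrl cells and 1.75 ± 0.0630 in that of silenced cells. In Polysome it was 1.70 ± 0.254 and 1.68 ± 0.242, so any difference there was smaller than the spread.

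The polysomal fractions held less of the tubulin mRNAs, relative to the typical gene, than the lysate. In Ctrl 7 of the 9 members were called lower in Polysome and 0 higher, against 18.8% and 20.8% of 13666 genes, with a median log2 FC (Polysome over Input) of -0.86 against -0.03 for all genes. In siRNAG5 8 were called lower and 0 higher, against 21.2% and 23.9% of 14795 genes, with a median of -1.12 against -0.04. In both, all 9 lay below Input without overlap (23.2% of genes in Ctrl, 27.5% in siRNAG5). TMM scaling sets the typical gene near 0. Scaled by library size alone, the median gene stood at 0.51 in Ctrl and 0.69 in siRNAG5, 1 and 0 members were called lower, and the log2 FC of TUBB6 and TUBB2A became positive in both and that of TUBA4A in siRNAG5. The share of all genes called lower was not counted with this scaling, so these counts of members have no background. For the siRNAG5 contrast the same change of scaling moved the median gene from 0.04 to 0.14 in Input and from 0.03 to 0.38 in Polysome.

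TUBA1C was the lowest member, at 44.9% of Input in Ctrl (log2 FC -1.15, SE 0.15, adjusted p = 1.139e-05) and 43.3% in siRNAG5 (-1.21, SE 0.11, adjusted p = 5.886e-06). TUBA1B was at 49.0% and 45.1%, and TUBA1A at 49.1% and 45.0%. These 3 α-tubulins had a lower Polysome to Input ratio than all but 5.45 to 7.19% of genes in Ctrl and all but 7.50 to 8.19% in siRNAG5. Among the β-tubulins, TUBB4B was at 51.5% and 45.0% of Input, TUBB at 55.1% and 46.1% and TUBB2B at 65.6% and 51.5%, each called in both treatments. TUBB2A was at 76.4% and 68.1% and was called in siRNAG5 only, and a difference between the treatments was not called (adjusted p = 0.7723). TUBB6 was at 86.5% (log2 FC -0.21, adjusted p = 0.1207) and 83.6% (-0.26, adjusted p = 0.05457), a place with 37.4% and 37.2% of all genes below it, and was called in neither. TUBA4A, at 59.0% and 66.8%, was called in both, but lost its call in siRNAG5 in 6 of the 8 fits that left out a library (adjusted p up to 0.08467). With Input Ctrl 3 and 4 alone as the lysate, so that every Ctrl library held liver markers, the same number of members, 7, was called.

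**Figure D5:**
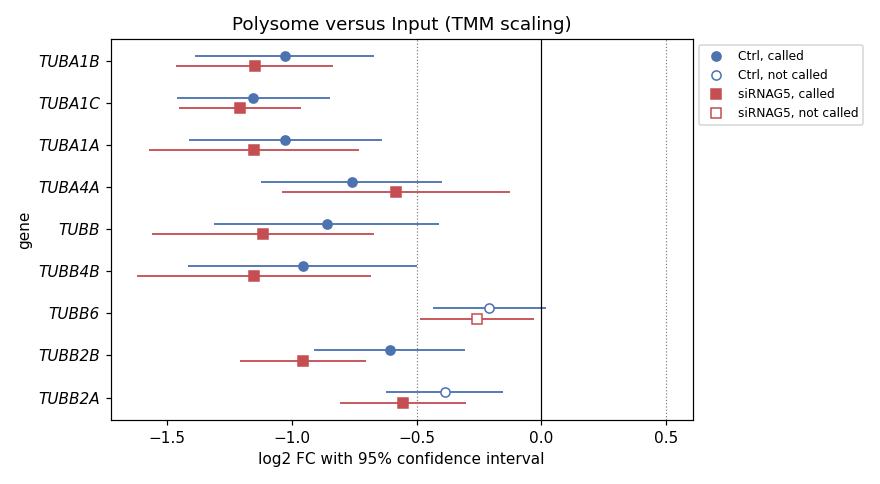
log2 FC of Polysome over Input after TMM scaling with 95% confidence intervals for the 9 tubulin genes, Ctrl as circles and siRNAG5 as squares, filled where called; dotted lines mark the threshold of 0.5. All 9 lie below 0, from TUBA1C at -1.15 and -1.21 to TUBB6 at -0.21 and -0.26, but scaled by library size TUBB6 and TUBB2A lie above 0 in both treatments and TUBA4A in siRNAG5.

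Whether silencing changed the polysome level beyond the lysate level was tested as the difference of both changes in 1 fit of the 16 libraries. edgeR called 0 members and 0.0% of 14958 genes, and 7.28% of genes had an unadjusted p under 0.05, among the members only TUBB2B. DESeq2 called 0 members and 30 genes. For TUBB2B, the log2 FC in Polysome less that in Input came to -0.42 (SE 0.19, 95% confidence interval -0.82 to -0.03, unadjusted p = 0.03717, adjusted p = 0.6388). The other members ranged from -0.33 for TUBB to 0.10 for TUBA4A, with adjusted p of 0.7723 to 0.9626. For TUBB4B the difference was -0.28 with an interval from -0.97 to 0.42, and for TUBB2A -0.24 with an interval from -0.54 to 0.06, so differences of that size could not be detected with this spread.

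The genes around tubulin were described from lists of the machinery. TTC5, the reader of the nascent chain, was at 41.1 ± 2.62 CPM in Input Ctrl and 35.7 ± 1.04 in Input siRNAG5 (log2 FC -0.19, SE 0.08, adjusted p = 0.05815), and at 39.2 ± 3.47 and 34.7 ± 1.81 CPM in Polysome (log2 FC -0.13, SE 0.13, adjusted p = 0.5333). Of the 12 autoregulation factors tested, 1 was called higher in Input and 1 in Polysome, where 10.5% and 3.95% of all genes were, so the counts are near the background. In Input it was SCAPER, which links TTC5 to the deadenylase, at 3.65 to 5.50 CPM in Ctrl and 5.58 to 7.12 in siRNAG5 (log2 FC 0.53, SE 0.15, adjusted p = 0.007392), a call lost in 3 of 8 fits that left out a library and with all 16 libraries in 1 fit (adjusted p = 0.07478). In Polysome it was CNOT6L, a deadenylase of CCR4-NOT, whose groups overlapped (log2 FC 0.78, adjusted p = 0.03141). In Input 4 other factors were lower with an adjusted p under 0.05 and folds within 0.5: CNOT2, CNOT3, CNOT7 and CNOT9 (19.1% of all genes were lower in this way).

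New tubulin chains are folded by the chaperonin CCT, to which prefoldin delivers them, and then assembled by cofactors. All 8 CCT subunits had a negative log2 FC in Input, 6 with an adjusted p under 0.05 (19.1% of all genes), and 2 were called lower (6.02% of all genes), TCP1 (829 ± 48.8 to 553 ± 37.1 CPM, log2 FC -0.57, adjusted p = 3.756e-08) and CCT6A (612 ± 37.5 to 418 ± 31.9 CPM, log2 FC -0.54, adjusted p = 1.956e-07). By library size both calls were lost on the fold (-0.46 for TCP1 and -0.43 for CCT6A), and that of CCT6A also in 2 of 8 fits that left out a library. In Polysome 0 of 8 were called (median log2 FC -0.30), where 4.0% of all genes were called lower and 3.95% higher. Of the 6 prefoldin subunits, PFDN6 was called lower in Polysome, where 4.0% of all genes were (178 ± 17.1 to 106 ± 17.0 CPM, log2 FC -0.71, adjusted p = 0.01831) and lost the call in 4 of 8 fits that left out a library and by library size (-0.37). In Input 0 prefoldin subunits were called, but PFDN2 (-0.22) and PFDN6 (-0.46) were lower with an adjusted p under 0.05 (19.1% of all genes). Of the 5 folding cofactors tested, 0 were called in either fraction, and all 5 had negative log2 FC in both. The share of all genes with a negative log2 FC is not given here. The other tubulins (γ, δ, ε and the tissue-restricted isotypes) had 5 of 12 genes tested and 0 called, with TUBG1, the γ-tubulin of the centrosome, at a log2 FC of -0.45 in Input (adjusted p = 8.388e-07). The 9 genes of the γ-tubulin ring had 0 calls in both. Of all genes, 6.02% were called lower and 10.5% higher in Input. At these shares and those of Polysome, counts of 0 in lists this short are near the background.

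Enzymes that modify tubulin had 1 gene called lower and 2 higher among 18 in Input, counts near the background of 6.02% and 10.5% of all genes. HDAC6, a deacetylase of α-tubulin, was at 16.8 ± 0.772 CPM in Ctrl and 26.7 ± 2.48 in siRNAG5 (log2 FC 0.67, adjusted p = 1.958e-06), TTLL1, of a polyglutamylase, at a log2 FC of 0.65 (adjusted p = 0.0002467), and TTLL12 at -0.57 (adjusted p = 5.37e-06). In Polysome TTLL12 was called lower again (-0.60, adjusted p = 0.02834) and VASH2, which removes the C-terminal tyrosine of α-tubulin, higher (0.78, adjusted p = 0.03574); these calls were lost in 5 and 6 of 8 fits that left out a library, and by library size TTLL12 was not called in either fraction (-0.46 in Input and -0.25 in Polysome). Of 14 genes of microtubule dynamics tested, 5 were called higher and 0 lower in Input, against 10.5% and 6.02% of all genes. They included KIF2C, a depolymerizing kinesin, from 32.1 ± 2.32 to 50.7 ± 1.27 CPM (log2 FC 0.67, adjusted p = 7.639e-08), the polymerase CKAP5 (0.56, adjusted p = 1.238e-06), and the microtubule-associated proteins MAPT (0.68, adjusted p = 1.849e-05) and MAP1B (0.75, adjusted p = 0.005261). In Polysome 0 of the 14 were called. Without Input Ctrl 3 and 4, the 10 genes named from the lists for Input kept their calls. With all 16 libraries in 1 fit, MAP1B (adjusted p = 0.1255) and CKAP5 (adjusted p = 0.05112) lost theirs, as SCAPER did, and 1 of 8 fits that left out a library lost CKAP5 and 1 TTLL1. The median log2 FC of the microtubule dynamics genes was 0.28 in Input, where that of the tubulins was -0.28. In Polysome these medians were 0.29 and -0.29. All genes had medians of 0.04 in Input and 0.03 in Polysome.

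Across the 16 libraries the genes outside the tubulin family whose log2 CPM was most like the mean standardized level of the 9 members were DDX24 (Pearson r = 0.992), NUP85 (0.990), TFIP11 (0.989), MYBBP1A (0.989) and SF3A2 (0.986), out of 14958 genes. DDX24 stood at 82.4 ± 6.49 CPM in Input Ctrl, 67.2 ± 2.14 in Input siRNAG5, 36.9 ± 10.1 in Polysome Ctrl and 24.2 ± 8.30 in Polysome siRNAG5. The points share the step between Input and Polysome and the 3 Polysome libraries that stood apart. Among the members the same r ran from 0.990 for TUBA1B to 0.879 for TUBB6 and 0.795 for TUBB2B.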

How the data were processed

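Polyadenylated RNA of 16 HEK293 libraries (Input and Polysome, Ctrl and siRNAG5, 4 each) was analysed, grouped by the sample labels. The authors made stranded libraries, aligned reads to GRCh38 with STAR 2.5.3a per the labels, used QoRTs to count reads per gene, and deposited these raw counts without normalization. The strand setting of the counting is not given in the sources used here. Reads on no gene (0.667 to 1.33% of a library), several genes (4.14 to 7.41%) or several places (4.88 to 42.4%) were listed apart and left out of library sizes. Library depth is the number of reads on genes.

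Each comparison was fitted across all genes by the quasi-likelihood test of edgeR 4.0.16 (R 4.3.3), after its default filter on low counts and TMM scaling, with Benjamini-Hochberg adjustment. A gene was called when its adjusted p was below 0.05 and its log2 FC exceeded 0.5 in size. The scripts were tested on simulated data. CPM were scaled by TMM over the 16 libraries, and lengths are those of GENCODE v44 canonical transcripts, whose release is later than the authors' annotation. Of the 58302 identifiers 57532 had a name there. In the gene lists, TBCE matched more than 1 identifier and was left out. Replicates of a group were compared and none agreed within counting noise.

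The members, lists and tests were chosen with earlier results of these data known. The genes named are all 10 members, GEMIN5, TTC5, up to 4 genes per list with the largest log2 FC among those called without overlap in Input or Polysome, and the 5 genes most like the members; CNOT6L, the CNOT genes and TUBG1 were added after their values were seen. Alternatives were the size factors of DESeq2's kind, DESeq2 1.42.0 itself, all genes without the filter, unadjusted p, a replicate block, all 16 libraries in 1 fit, 1 surrogate variable (sva 3.50.0), leaving out each library, other lengths and other read totals. Chosen after seeing the data were library size without TMM, leaving out the 3 Polysome libraries that stood apart, and leaving out the Input Ctrl libraries with or without liver markers. Figures and summaries used Python 3.11.15, pandas 2.3.3 and matplotlib 3.10.9.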

Additional observations from a re-analysis of the deposited data

Results flagged for a closer look

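In the 36 groups of 4 libraries formed by the 9 measured members, 1 library lay far from the rest of its group by Dixon's test: TUBA1A was at 317 CPM in Input siRNAG5 1, where the other 3 libraries of the group were at 335 to 339 CPM. Chance marks about 1 in 20 groups. No other member met a criterion, and in no member did all silenced libraries move one way in Input and the other way in Polysome.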

How the results depend on the processing

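The number of members called in Input was 1 and rose to 2 with no filter on low counts and without Input Ctrl 3 and Ctrl 4 (TUBB2B added), fell to 0 with all 16 libraries in 1 fit (TUBB4B -0.54, adjusted p = 0.1325), and ran from 0 to 2 when each library was left out; by library size the 1 called member was TUBB2B. In Polysome it was 1 and became 2 with unadjusted p, all 16 libraries in 1 fit, 1 surrogate variable or without the 3 libraries that stood apart, 0 by library size, and 0 to 2 when each library was left out. For Polysome versus Input, library size gave 1 in Ctrl and 0 in siRNAG5, and leaving out each library 6 to 7 and 6 to 8. For the difference of both changes every alternative gave 0 members. Over all genes, calls in Polysome numbered 1146, against 1766 with no filter, 1971 by DESeq2, 2942 with unadjusted p, 2597 with all 16 libraries, 2966 with 1 surrogate variable, 2514 by library size and 3115 without the 3 libraries. Calls of the difference numbered 0, against 57 with no filter, 30 by DESeq2, 789 with unadjusted p, 500 with 1 surrogate variable and 765 without the 3 libraries. The replicate block gave 1, 1, 7, 8 and 0 members, as without it. The study fractionated individual lysates, so an Input and a Polysome library may share a culture, and the fits without the block treated all libraries as independent. The numbers were not shown to pair the samples. Between Input and Polysome of a treatment, correlations of same-numbered deviations ran from -0.207 to 0.222, and not every sample correlated best with its own number. Between Polysome Ctrl and Polysome siRNAG5 they ran from -0.53 to 0.483.

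Reversed directions were of small values or came with library size. By library size TUBA1A turned to 0.11 in Input, and TUBA1A (0.20), TUBA4A (0.21), TUBB (0.14) and TUBB6 (0.0619) in Polysome. Polysome versus Input became 0.15 for TUBB2A and 0.33 for TUBB6 in Ctrl, and 0.17 for TUBA4A, 0.19 for TUBB2A and 0.48 for TUBB6 in siRNAG5. The difference of both changes became 0.0904 for TUBA1A, 0.0949 for TUBA1B, 0.15 for TUBA1C, 0.0455 for TUBB2A, 0.0362 for TUBB4B and 0.16 for TUBB6. TUBA1A in Input was 0.0167 with no filter, 0.0287 without Input Ctrl 3 and Ctrl 4, and -0.0315 to 0.0198 when each library was left out. TUBA4A in Polysome was 0.0444 without the 3 libraries, and its difference was -0.0661 with 1 surrogate variable and -0.10 to 0.27 over the fits that left out a library. TUBB2B in Polysome ran from -0.0202 to 0.18 over such fits, negative without Ctrl 1. Beyond the shift of the median gene given above, the cause was not tested. Of 819 member values under an alternative, 749 kept direction and call, 32 lost the call, 12 gained it and 26 reversed.

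Counting reads at several places in the total lowered the tubulin share from 0.550 to 0.519% in Input Ctrl, 0.518 to 0.486% in Input siRNAG5, 0.410 to 0.297% in Polysome Ctrl and 0.403 to 0.273% in Polysome siRNAG5. Depth limits TUBA4A, with 56 to 177 reads per library, and TUBB3 was not measurable. Isotypes that share sequence were counted from unique reads only.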
